A study of Mus musculus with 37 samples.

Results

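Messenger RNAs encoded by mitochondrial DNA were followed in the gastrocnemius, a calf muscle, in wild-type animals and in animals with a muscle-specific knockout of Nampt. Nampt makes nicotinamide mononucleotide, a precursor of NAD+, from nicotinamide. The genes were chosen by symbol alone: 13 of the 50686 rows of the count table have a symbol that starts with mt-Nd, mt-Co, mt-Cytb or mt-Atp, and 11 of the 13 had counts. RNA depleted of ribosomal RNA was sequenced as 38-base read pairs in 37 libraries, each from 1 numbered animal. Wild-type mice gave 6 libraries at 2 weeks of age, 6 at 4 weeks, 2 at 6 weeks and 5 at 8 weeks. Muscle-specific Nampt knockout mice, titled HOM and labelled SMNKO, gave 5, 5, 2 and 6 libraries at the same ages. Libraries were sequenced in 2 pools, A and B. Sex was labelled from 4 weeks on, and every 8-week animal was male except wild-type animal 35. The strain and the promoter that drives the deletion are not given in the sources used here.

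Mitochondrial DNA is a small circular genome that encodes subunits of respiratory complexes I, III and IV and of the ATP synthase, together with the ribosomal and transfer RNAs needed to translate them inside the organelle. Both strands are transcribed as long precursors, which are cut mostly at the tRNAs between the genes. All proteins that copy, transcribe and process this genome are encoded in the nucleus, as are most subunits of the same complexes, and muscle fibres hold many copies of the genome because contraction draws on oxidative phosphorylation. Complex I takes its mt-Nd subunits, complex III takes mt-Cytb, complex IV takes mt-Co1, mt-Co2 and mt-Co3, and the ATP synthase takes mt-Atp6 and mt-Atp8. Since the genes lie on shared precursors, their values are not independent of each other.

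Not every gene of the set had enough counts to be tested, and parts of mitochondrial DNA have copies in the nucleus. Of the 13 genes, mt-Atp8 and mt-Nd4l had no count in any library. The other low genes were mt-Co2 with 12 counts in all libraries together, mt-Co3 with 8 and mt-Atp6 with 3, and none had more than 1 count in a library. These 3 genes did not pass the filter on low counts, so 8 genes were tested. A stretch of chromosome 1 carries 7 annotated pseudogenes on the minus strand, nearly identical to mitochondrial genes and in the mitochondrial order when read along that strand. Each is given beside its mitochondrial gene in coordinates of GRCm38 (mm10), with transcript sequences from GENCODE vM21. The sequences below are shown because a read from a shared stretch fits more than 1 place. The part of these copies in the low counts was not tested. Within them, capitals mark bases that differ between gene and copy, bases past the end of a copy, or bases that 2 mitochondrial genes share.

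Gm28661 (chr1:24614885-24615565) matches mt-Co2 (chrM:7013-7696) over its whole 681 bases, here from base 1 to base 60:
mt-Co2: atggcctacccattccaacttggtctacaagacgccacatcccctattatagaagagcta
Gm28661: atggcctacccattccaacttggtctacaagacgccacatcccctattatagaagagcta
No 38-base read from this stretch can tell the 2 loci apart.
Gm28438 (chr1:24612775-24613119) differs from mt-Nd3 (chrM:9459-9806) at 1 of 345 bases, T3C counted from the 5′ end of mt-Nd3, and 6 of the 311 words of 38 bases in mt-Nd3 were found in no other gene:
mt-Nd3: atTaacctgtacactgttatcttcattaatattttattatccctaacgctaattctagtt
Gm28438: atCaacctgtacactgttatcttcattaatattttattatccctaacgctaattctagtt
Gm28439 (chr1:24611535-24612410) matches mt-Nd4 (chrM:10167-11544) from base 1 to base 876 and ends there, so the capitals belong to mitochondrial DNA alone among these 2, from base 837:
mt-Nd4: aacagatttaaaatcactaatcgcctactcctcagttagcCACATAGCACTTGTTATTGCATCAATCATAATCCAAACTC
Gm28439: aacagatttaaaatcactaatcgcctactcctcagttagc
Gm29216 (chr1:24615706-24616197) covers mt-Co1 (chrM:5328-6872) from base 1054 to base 1545 with 486 of 492 bases the same, and the 6 differing bases stand together at its start:
mt-Co1: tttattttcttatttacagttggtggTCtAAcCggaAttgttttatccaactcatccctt
Gm29216: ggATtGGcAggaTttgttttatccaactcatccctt
For contrast, mt-Nd1 (chrM:2751-3707) shares none of its 38-base words with an annotated nuclear gene, as in its first 60 bases:
mt-Nd1: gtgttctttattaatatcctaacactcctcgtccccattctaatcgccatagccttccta

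The remaining pairs on chromosome 1 were Gm28437 with mt-Co3 (783 of 783 bases the same), Gm10925 with mt-Atp6 (678 of 678) and Gm10222 with mt-Nd4l (294 of 294). On chromosome 2, Gm13340 is a longer copy of mt-Co1, with 1508 of 1545 bases the same. Counted as 38-base words that also occur in an annotated nuclear gene, sharing was 100% for mt-Co2, 99.9% for mt-Co3, 99.5% for mt-Atp6, 98.8% for mt-Nd4l and 98.1% for mt-Nd3. It was 62.6% for mt-Nd4 and 58.4% for mt-Co1, and 10.5% for mt-Nd2. It reached 232 of 1787 words for mt-Nd5, and was 3.59% or less for mt-Nd1, mt-Nd6, mt-Cytb and mt-Atp8. Of the 5 genes that share nearly all their words, mt-Co2, mt-Co3, mt-Atp6 and mt-Nd4l were all but absent, while mt-Nd3 had 979 counts in 37 libraries. All 7 chromosome 1 copies together had 3724 counts, beside 13788519 counts of the mitochondrial mRNAs. Whether reads that fit more than 1 place were counted is not given in the sources used here, so no transcript level is read from the low genes.

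mt-Atp8 (chrM:7766-7969), with no count, shared only 3.59% of its words with an annotated nuclear gene. Its last 43 bases, in capitals, are also the first bases of mt-Atp6, the gene it overlaps on the same strand:
mt-Atp8: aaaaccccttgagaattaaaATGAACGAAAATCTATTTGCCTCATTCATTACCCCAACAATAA
On chromosome 1, the place that corresponds to mt-Atp8 lies in a gap of 233 bases between Gm10925 and Gm28661 that no gene of the pair covers, against 230 bases between mt-Co2 and mt-Atp6. The sequence of that gap was not used here.

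Libraries differed in ways that touch these genes, and this is stated before the results. Total counts ran from 5192700 to 23134727, with a median of 16827002. The levels given throughout are CPM, counts scaled to a common library total after correction with trimmed mean of M-values (TMM) factors. By a threshold of 5% of counts, 5 libraries were rich in nuclear ribosomal RNA: wild-type animals 3 and 4 and knockout animal 8 at 4 weeks, and wild-type animals 34 and 35 at 8 weeks. They held 8.49% to 29.3% nuclear rRNA, against at most 1.24% in the other 32 libraries. At 8 weeks the 2 rRNA-rich libraries were the only wild-type libraries of pool A. Their TMM factors were 0.44 and 0.48, against 0.88 to 1.08 in the other wild-type and 1.22 to 1.59 in the knockout libraries of that age. No knockout library reached the Nampt level of a wild-type library of its age, with 46.5 to 56.0 CPM against 170 to 236 CPM at 8 weeks. Nampt mRNA was reduced but present: the knockout mean stood at 50.8% of the wild-type mean in 2-week animals, 49.0% in 4-week, 23.7% in 6-week and 24.2% in 8-week animals, and the cells it came from were not identified.

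Among the 8 genes tested, mt-Co1 was by far the most counted. The median over 37 libraries was 8843 CPM per 1000 bases for mt-Co1, the catalytic core subunit of complex IV. Next came mt-Nd1, a complex I subunit, with 1931, and mt-Cytb, the only mitochondrially encoded subunit of complex III, with 1764 CPM per 1000 bases. The complex I genes mt-Nd4, mt-Nd5 and mt-Nd2 followed with 432, 341 and 330, then mt-Nd6 with 166 and mt-Nd3 with 4.07 CPM per 1000 bases. mt-Co1 lay above mt-Nd1 in 37 of 37 libraries, mt-Cytb above mt-Nd4 in 37 and mt-Nd2 above mt-Nd6 in 37. Neighbours within the middle of the order could not be ranked: mt-Nd1 exceeded mt-Cytb in 26 of 37 libraries, mt-Nd4 exceeded mt-Nd5 in 24 and mt-Nd5 exceeded mt-Nd2 in 22. How reads that fit several places were treated could change these levels. Per 1000 words found in no other gene, mt-Co1 reached 21756 CPM, mt-Nd4 1185 and mt-Nd3 236, and mt-Nd3 then stood above mt-Nd6 with 181. mt-Nd6 (chrM:13552-14070) is the only gene of the set on the opposite strand, and its end overlaps that of mt-Nd5 (chrM:11742-13565). Because the strand setting of the counting is not given, reads of the 2 strands in mt-Nd6 cannot be told apart.

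**Figure D1:**
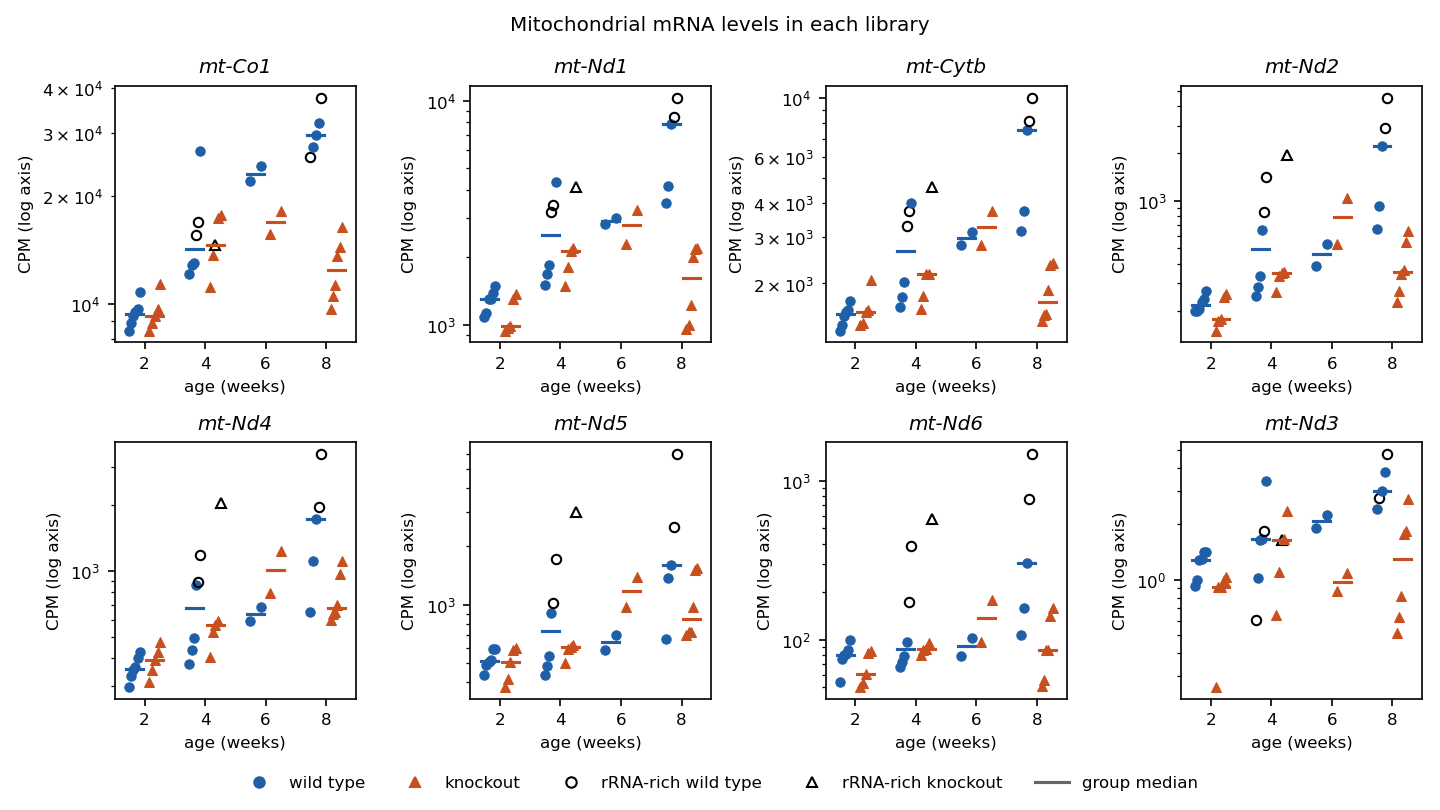
CPM (log axes, a scale of its own for each gene) against age in weeks for the 8 genes tested, 1 point per library, with lines at group medians; open symbols are the 5 rRNA-rich libraries. At 8 weeks all 6 knockout points of mt-Co1, mt-Nd1, mt-Cytb and mt-Nd2 lie below all 5 wild-type points, and the open symbols are the highest wild-type points of most genes. The share of all 16728 genes that stood apart in this way is not given, and 52.5% of them were called at 8 weeks.

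At 8 weeks mitochondrial mRNAs were lower in Nampt knockout than in wild-type muscle. All 8 genes tested were called lower by edgeR's quasi-likelihood test with a Benjamini-Hochberg adjusted p below 0.05 over all 16728 genes tested. In that comparison 52.5% of all genes were called, 26.3% as lower and 26.2% as higher. The median log2 fold change over the 8 genes was -1.52, against 0.03 over all genes. In bulk tissue, fewer fibres or mitochondria and less RNA in each cannot be told apart.

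mt-Co1 had 37689 and 25697 CPM in the rRNA-rich wild-type animals 34 and 35 and 29622, 31979 and 27382 CPM in animals 36, 37 and 38. The 6 knockout libraries had from 9718 to 16452 CPM with a median of 12473. The groups did not overlap, and the rRNA-rich libraries lay at both ends of the wild-type values. The mean was 12681 ± 2591 CPM (SD, n = 6) in knockout and 30474 ± 4675 CPM (SD, n = 5) in wild type, a log2 fold change of -1.26 ± 0.18 (SE) with an edgeR adjusted p of 3.84e-07. Without the rRNA-rich libraries the log2 fold change was -1.24, and within pools it was -1.53 in A and -1.02 in B.

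mt-Nd1 and mt-Cytb also did not overlap between the groups. mt-Nd1 had 10327, 8424, 3500, 7838 and 4160 CPM in wild-type animals 34 to 38 and from 954 to 2206 CPM with a median of 1610 in the knockout. Wild-type values fell in 2 clumps, with animals 36 and 38 near the bottom and animal 37 beside the rRNA-rich libraries. The knockout libraries parted by pool, at 954 to 1223 CPM in pool A and 1998 to 2206 CPM in pool B. The log2 fold change of mt-Nd1 was -2.09 ± 0.30 (SE, edgeR adjusted p = 7.22e-07), and -1.66 without the rRNA-rich libraries. mt-Cytb had 9988, 8183, 3748, 7525 and 3152 CPM in the wild-type animals and from 1450 to 2390 CPM with a median of 1708 in the knockout. Its log2 fold change was -1.78 ± 0.26 (SE, edgeR adjusted p = 1.19e-06), and -1.39 without the rRNA-rich libraries.

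mt-Nd2 was the other gene of the 8 whose groups stood apart. What share of all 16728 genes stood apart in this way is not given, and 52.5% of them were called in this comparison. mt-Nd2 had 4519 and 2914 CPM in wild-type animals 34 and 35, 931, 2224 and 663 CPM in animals 36 to 38, and 229 to 642 CPM with a median of 354 in the knockout. The lowest wild-type library lay only just above the highest knockout library. The log2 fold change was -2.44 ± 0.52 (SE, edgeR adjusted p = 0.00026), and -1.60 without the rRNA-rich libraries. Within pool B alone it was -1.32 with an adjusted p of 0.10.

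For mt-Nd4 and mt-Nd5, both complex I subunits, the groups overlapped. mt-Nd4 had 3439, 1958, 1117, 1736 and 652 CPM in the wild-type animals and from 598 to 1110 CPM with a median of 678 in the knockout, where 2 of 6 libraries lay below all wild-type libraries. mt-Nd5 had 5993, 2526, 1381, 1602 and 666 CPM in wild type and from 699 to 1549 CPM with a median of 849 in the knockout. No knockout library of mt-Nd5 lay below wild-type animal 38. The log2 fold changes were -1.14 ± 0.35 (SE, edgeR adjusted p = 0.0073) for mt-Nd4 and -1.14 ± 0.45 (SE, edgeR adjusted p = 0.034) for mt-Nd5. Without the rRNA-rich libraries neither was called, with log2 values of -0.59 (adjusted p = 0.055) and -0.21 (adjusted p = 0.55). Leaving out wild-type animal 34 alone ended the call of mt-Nd5 (-0.58, adjusted p = 0.26), as did leaving out any of knockout animals 39, 40, 41 and 43.

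mt-Nd6, which lies on the opposite strand, had 1471 and 769 CPM in the rRNA-rich animals, 158, 302 and 107 CPM in animals 36, 37 and 38, and from 51.1 to 157 CPM with a median of 85.8 in the knockout. The log2 fold change of -2.46 ± 0.61 (SE, edgeR adjusted p = 0.0014) came to -0.83 (adjusted p = 0.013) without the rRNA-rich libraries. Within pool B it was -0.58 with an adjusted p of 0.43. mt-Nd3 had few counts, from 5 to 75 in a library. Wild-type animals 34 to 38 had 4.78, 2.77, 3.81, 2.42 and 3.03 CPM, and the knockout had from 0.51 to 2.72 CPM with a median of 1.29, so that 5 of 6 knockout libraries lay below all wild-type libraries. Of the rRNA-rich animals, 34 was the highest and 35 the lowest but one. The log2 fold change of mt-Nd3 was -1.24 ± 0.37 (SE, edgeR adjusted p = 0.0052), and -1.15 without the rRNA-rich libraries.

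Which genes passed at 8 weeks thus depended on the libraries, while the direction was lower in every fit run for all but mt-Nd5. Without the 5 rRNA-rich libraries 6 of 8 genes were called lower, with 48.2% of all genes called. Within pool A 8 of 8 were called, against 24.4% of all genes, and there both wild-type libraries are rRNA-rich. Within pool B 3 of 8 were called, mt-Nd1, mt-Co1 and mt-Cytb, against 41.8% of all genes called in either direction, a share near that of the members. In that pool mt-Nd5 had a log2 value of 0.02. The size depended on the scaling: when libraries were scaled by their sizes alone, the median over the genes tested moved to 0.82, and 4 genes were called lower, mt-Nd1 at -1.16, mt-Nd2 at -1.42, mt-Nd6 at -1.32 and mt-Cytb at -0.85. Under that scaling 67.1% of all genes were called in either direction, a larger share than that of the members. The shares over all genes in these other fits count both directions, and the share called lower alone is not given. mt-Co1 stood at -0.43 and mt-Nd4 and mt-Nd5 at -0.18 and -0.12 with library sizes alone, all below the median of all genes.

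**Figure D2:**
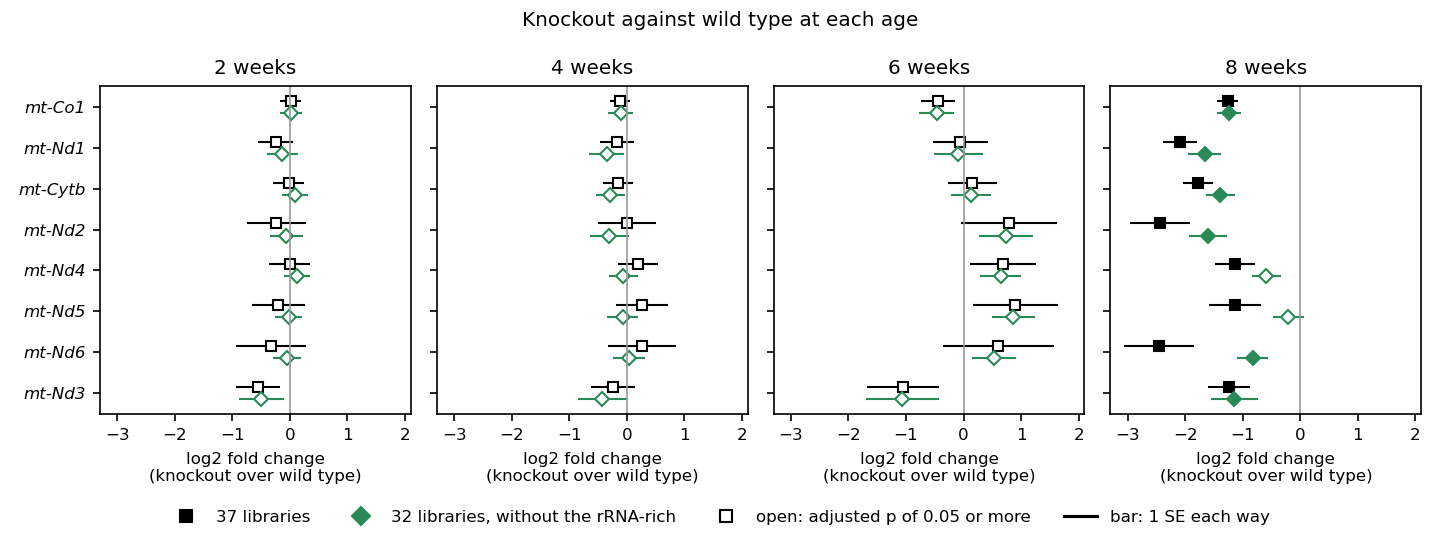
Log2 fold change of knockout over wild type (x) for the 8 genes at each of the 4 ages, with bars of 1 SE each way; squares are from 37 libraries, diamonds from the 32 that are not rRNA-rich, and filled symbols have an adjusted p below 0.05. Filled symbols occur at 8 weeks alone, and mt-Nd6, mt-Nd5 and mt-Nd2 move most towards 0 at that age when the rRNA-rich libraries are left out.

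No mitochondrial mRNA was called at 2, 4 or 6 weeks. edgeR called 0 of 8 at each of these ages, DESeq2 called 0 as well, and 0 had an unadjusted p below 0.05. Over all genes, edgeR called 0.0598% at 2 weeks, 5.66% at 4 weeks and 9.67% at 6 weeks. At 2 weeks the log2 fold changes ran from -0.55 for mt-Nd3 to 0.01 for mt-Co1. mt-Co1 averaged 9534 ± 1139 CPM (SD, n = 5) in knockout and 9431 ± 810 CPM (SD, n = 6) in wild type at that age. At 4 weeks they ran from -0.23 for mt-Nd3 to 0.27 for mt-Nd6, with mt-Co1 at -0.12. Single libraries stood far from the rest at 4 weeks: mt-Co1 had 26822 CPM in wild-type animal 1 against 12181 to 16971 CPM in the other 5, and mt-Nd6 had 569 CPM in the rRNA-rich knockout animal 8 against 80.3 to 95.7 CPM in the other 4.

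The 6-week libraries showed members on both sides of 0, and with 2 libraries in each group the spread is poorly known. mt-Co1 had 22003 and 24278 CPM in wild type against 18216 and 15743 CPM in knockout. mt-Nd3 was likewise lower in both knockout libraries, with 0.87 and 1.08 CPM against 1.89 and 2.25 CPM. mt-Nd5 went the other way, with 1392 and 980 CPM in knockout animals 19 and 20 against 586 and 696 CPM in wild type. mt-Nd4 and mt-Nd2 were also higher in both knockout libraries, mt-Nd4 with 1231 and 797 against 595 and 684 CPM and mt-Nd2 with 1036 and 536 against 387 and 531 CPM. The log2 fold changes were -0.45 for mt-Co1, -1.06 for mt-Nd3, 0.68 for mt-Nd4, 0.90 for mt-Nd5 and 0.79 for mt-Nd2, with edgeR adjusted p-values between 0.28 and 0.58. Knockout animal 19 was female and the other 3 animals male, and animals 16 and 20 were from pool A.

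Whether the knockout effect itself changed with age was tested as the 8-week effect minus the 4-week effect, which uses the same 8-week libraries as above. It was lower at 8 weeks for 6 of 8 genes by edgeR, where 27.4% of all genes were called and 13.8% as lower. The difference was -1.91 for mt-Nd1, -2.44 for mt-Nd2, -1.14 for mt-Co1, -1.33 for mt-Nd4, -2.73 for mt-Nd6 and -1.63 for mt-Cytb on the log2 scale, with adjusted p-values from 0.00083 to 0.045. mt-Nd3 and mt-Nd5 had differences of -1.01 and -1.41 that did not pass. With labelled sex as a term 4 of 8 genes were called, against 20.5% of all genes called in either direction. Without the rRNA-rich libraries 4 genes were called, mt-Nd1 at -1.31, mt-Nd2 at -1.30, mt-Co1 at -1.13 and mt-Cytb at -1.10, against 26.4% of all genes called. With wild-type animal 34 or knockout animal 8 left out, 4 genes were called, and the share over all genes in those fits is not given.

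In wild-type muscle most of the 8 genes rose with age. From 2 to 4 weeks 5 of 8 were called higher by edgeR, against 24.2% of all genes called higher and 47.9% called in either direction. mt-Co1 went from 9431 ± 810 (SD, n = 6) to 16233 ± 5504 CPM (SD, n = 6), a log2 fold change of 0.78. mt-Nd1 rose by 1.03, mt-Nd2 by 1.46, mt-Nd4 by 0.92 and mt-Cytb by 0.80, while mt-Nd3, mt-Nd5 and mt-Nd6 had values of 0.52, 0.66 and 0.86 that did not pass. Without wild-type animal 4, which is rRNA-rich, 3 genes were called, and the share over all genes in that fit is not given. With library sizes alone 1 was called, where all genes had a median of -0.53 and 47.7% of them were called. Within pool A 3 were called, against 18.3% of all genes, and within pool B 1, against 31.9% of all genes, a share above that of the members. Both shares over all genes count either direction.

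From 4 to 8 weeks 7 of 8 were called higher, against 7.8% of all genes called higher and 15.4% called in either direction. This comparison rests on the same 8-week wild-type libraries as the knockout comparison. Sex was not balanced: wild-type animals 1, 3 and 4 were female at 4 weeks, against animal 35 alone at 8 weeks. With labelled sex as a term 5 of 8 were called, against 9.08% of all genes called in either direction. The log2 fold changes were 0.91 for mt-Co1, 1.37 for mt-Nd1, 1.25 for mt-Cytb, 1.80 for mt-Nd2, 1.31 for mt-Nd4, 1.44 for mt-Nd5 and 1.88 for mt-Nd6, and 0.88 for mt-Nd3 with an edgeR adjusted p of 0.11. Without the 5 rRNA-rich libraries 7 genes were again called, against 13.4% of all genes called in either direction. The log2 values were then 0.87 for mt-Co1 and 1.03 for mt-Nd6. Without wild-type animal 34 alone 3 genes were called, mt-Co1, mt-Nd1 and mt-Cytb, and the share over all genes in that fit is not given. Within pool B 4 were called, against 7.69% of all genes called in either direction. In the knockout over the same ages mt-Co1 averaged 14912 ± 2732 CPM (SD, n = 5) at 4 weeks and 12681 ± 2591 CPM (SD, n = 6) at 8 weeks.

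The part of the whole library taken by these mRNAs does not use the TMM scaling. Their share of all counts was 1.61% ± 0.10 (SD, n = 6) in wild type and 1.69% ± 0.23 (SD, n = 5) in knockout at 2 weeks, and 1.94% ± 0.58 and 1.85% ± 0.40 at 4 weeks. At 6 weeks the 2 wild-type libraries had 2.67% and 3.17% and the knockout libraries 2.54% and 2.30%. At 8 weeks wild type had 2.44% to 4.70% with a mean of 3.67% ± 0.90 (SD, n = 5), and knockout had 1.87% to 2.85% with a mean of 2.44% ± 0.41 (SD, n = 6). The lowest wild-type share was that of rRNA-rich animal 35, within the knockout range. With the rRNA-rich libraries left out, the 4-week shares were 2.01% ± 0.71 in wild type and 1.95% ± 0.37 in knockout (SD, n = 4 each). The 8-week wild type then had 3.59% to 4.70% with a mean of 4.22% ± 0.56 (SD, n = 3), above the knockout range. Of the counts outside rRNA, over all 8-week libraries, wild type had 3.86% to 5.44% and knockout 1.93% to 3.02%, and these ranges did not overlap. No p is given for these sums.

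**Figure D3:**
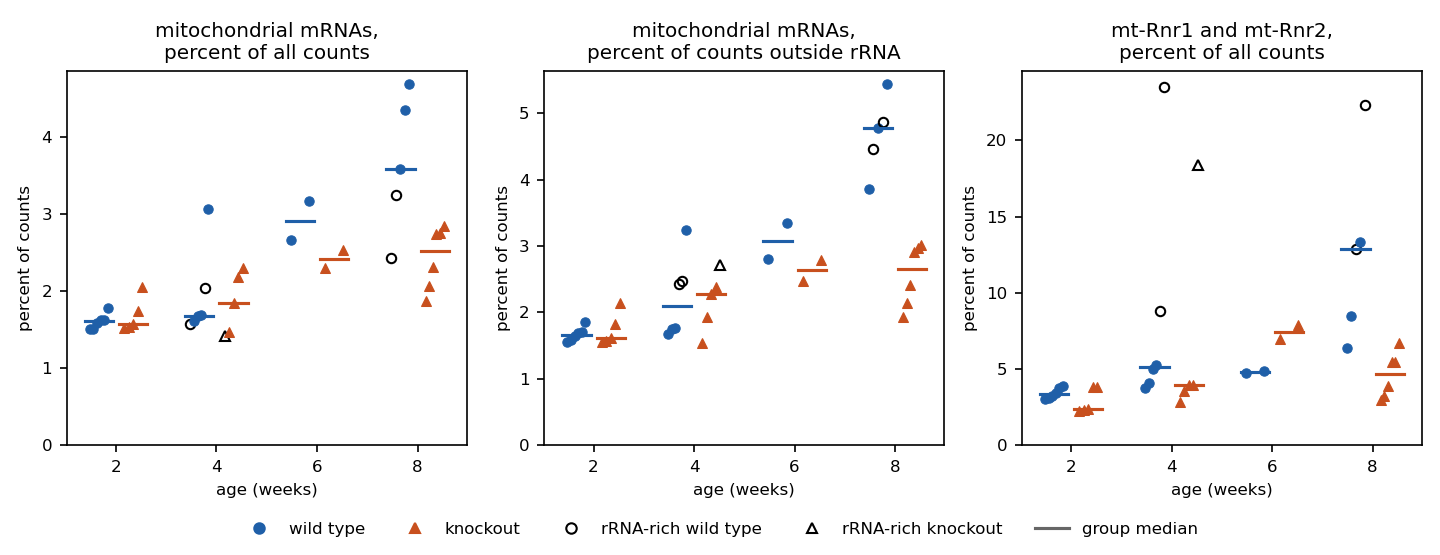
Percent of counts (y, from 0) against age in weeks, 1 point per library, for mitochondrial mRNAs among all counts (left), mitochondrial mRNAs among counts outside rRNA (middle) and mt-Rnr1 with mt-Rnr2 among all counts (right). In the middle panel the 8-week groups stand apart at 3.86% or more in wild type and 3.02% or less in knockout, and in the right panel the open symbols of rRNA-rich libraries reach 23.5%.

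The mitochondrial ribosomal RNAs come from the same genome, and depletion of rRNA removes a variable part of them. At 8 weeks mt-Rnr2, the large ribosomal RNA, had a log2 fold change of -2.20 (edgeR adjusted p = 0.00065) and mt-Rnr1, the small one, -2.83 (edgeR adjusted p = 0.019). Without the rRNA-rich libraries the values were -1.43 (adjusted p = 3.22e-05) for mt-Rnr2 and -1.28 (adjusted p = 0.0068) for mt-Rnr1. At 6 weeks both were higher in both knockout libraries, mt-Rnr1 with a mean of 13463 against 3858 CPM and mt-Rnr2 with 67015 against 47103 CPM. Neither was called at that age over all libraries (edgeR adjusted p = 0.42 and 0.72), while mt-Rnr1 was called higher in the fit without the rRNA-rich libraries (1.73, adjusted p = 0.041). At 8 weeks the joint share of mt-Rnr1 and mt-Rnr2 among all counts was 12.7% ± 6.1 (SD, n = 5) in wild type and 4.62% ± 1.47 (SD, n = 6) in knockout. It reached 22.3% in rRNA-rich animal 35. At 6 weeks the joint share averaged 4.82% in wild type and 7.44% in knockout (n = 2 each). The part of rRNA carry-over in the differences of the mRNAs was tested only by leaving out libraries and by a term for nuclear rRNA. With that term 6 of 8 mRNAs were called lower at 8 weeks, against 52.4% of all genes called, and mt-Nd4 and mt-Nd5 were not, at -0.57 and -0.30.

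The make-up of the mitochondrial mRNA pool, as each gene's percent of the counts of the 11 genes, is free of the scaling between libraries. It set the rRNA-rich libraries apart in their medians, while the ranges overlapped. mt-Co1 made up 71.5% (median) in the 32 other libraries and 51.3% in the 5 rRNA-rich ones, whose range of 47.2% to 62.7% hardly met the others' 60.1% to 75.2%. mt-Nd6 made up 0.44% in the other libraries and 1.52% in the rRNA-rich ones. mt-Nd5 made up 3.38% and 6.43% and mt-Nd4 2.76% and 4.45% in the same order. The lowest rRNA-rich values were those of wild-type animal 3, with 3.77% of mt-Nd5, 3.28% of mt-Nd4 and 0.64% of mt-Nd6. Among the other libraries, knockout animal 44 was highest for mt-Nd5 with 7.05% and for mt-Nd6 with 0.73%. Knockout animal 42 was highest for mt-Nd4 with 4.96%.

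The make-up by genotype is described with no test. At 6 weeks mt-Nd5 made up 4.79% and 4.22% in knockout animals 19 and 20 and 2.00% and 2.15% in wild type. mt-Nd4 made up 4.24% and 3.43% in knockout and 2.03% and 2.11% in wild type. mt-Co1 made up 62.7% and 67.8% in knockout against 75.2% and 74.9%. At 8 weeks without the rRNA-rich libraries, mt-Nd5 made up 3.16% to 7.05% in the 6 knockout libraries and 1.81%, 3.01% and 3.41% in wild-type animals 38, 37 and 36. mt-Nd4 made up 2.89% to 4.96% in knockout and 1.77% to 3.26% in wild type, so that for each of both genes 5 of 6 knockout libraries lay above all 3 wild-type libraries, and knockout animal 43 did not. With the rRNA-rich libraries included, no knockout library lay above all wild-type libraries for mt-Nd5. mt-Nd1 went the other way, with 3 of 6 knockout libraries below all wild-type libraries. These were animals 39, 40 and 41, the knockout libraries of pool A, with 6.21% to 8.39%. The knockout libraries of pool B had 9.03% to 10.3%. The wild-type libraries that are not rRNA-rich, all of pool B, had 8.65% to 14.7%, so pool and genotype cannot be told apart here. At 2 weeks the make-up differed too, but the pools were unevenly spread over the genotypes, and these percents have no term for pool. Knockout animal 31 was from pool B and the other 2-week knockout libraries from pool A. Of the 2-week wild-type libraries, animals 21 and 23 were from pool A and the rest from pool B. mt-Nd1 made up 8.26% ± 0.67 (SD, n = 5) in knockout and 9.53% ± 0.58 (SD, n = 6) in wild type, with 4 of 5 knockout libraries below all wild-type libraries. For mt-Nd2 the same 4 of 5 lay below, while animal 31 with 1.83% lay above all wild-type libraries, the highest at 1.75%. These 4 libraries were the knockout libraries of pool A. For mt-Nd3 4 of 5 lay below, animal 31 among them, on 7 to 26 counts in a knockout library. For mt-Cytb 3 of 5 knockout libraries lay above all wild-type libraries, animals 28, 29 and 30, all from pool A. mt-Nd4 and mt-Nd5 overlapped at that age, with mt-Nd5 at 3.24% to 4.21% in knockout and 3.35% to 4.66% in wild type.

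**Figure D4:**
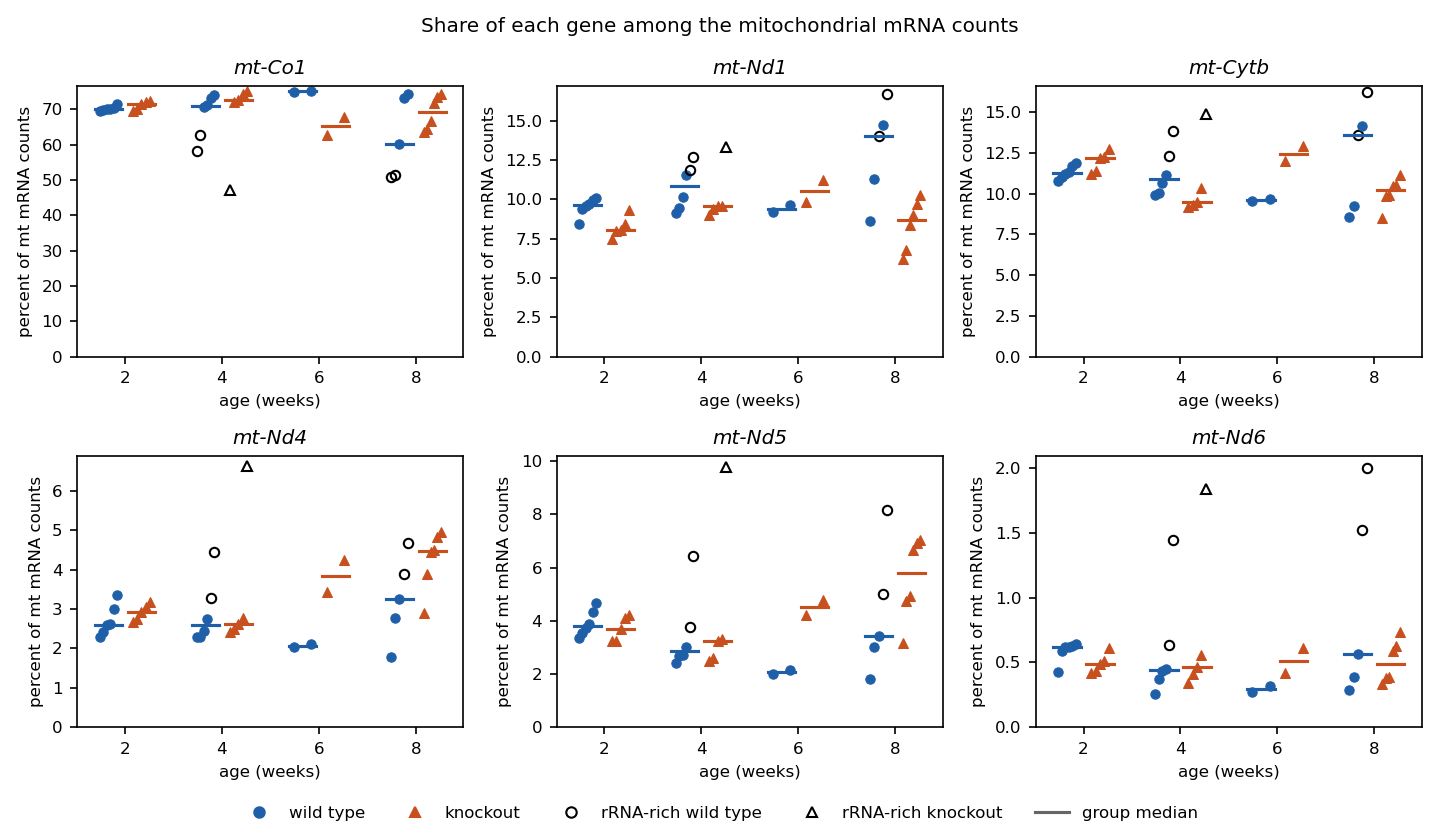
Percent of the mitochondrial mRNA counts (y, from 0, a scale of its own for each gene) against age in weeks for 6 genes, 1 point per library, with lines at group medians. Open symbols, the rRNA-rich libraries, are low for mt-Co1 and high for mt-Nd6; at 6 and 8 weeks most filled knockout points of mt-Nd4 and mt-Nd5 lie above the filled wild-type points.

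Nuclear genes that serve the mitochondrial genome were taken from lists and counted in the same model. At 8 weeks, against 26.3% of all genes called lower and 26.2% called higher, 10 of 23 tested genes of mitochondrial DNA transcription and upkeep were called lower and 1 higher, with a median log2 fold change of -0.19. Among them Tfb2m, the factor that lets mitochondrial RNA polymerase open its promoters, fell by 0.85, Rrm2b, a ribonucleotide reductase subunit that supplies nucleotides for this DNA, by 0.86, and the topoisomerase Top1mt by 0.75. Of the 21 tested genes of mitochondrial RNA processing and stability, 11 were called lower and 1 higher (median -0.28). They include Lrpprc, which protects mitochondrial mRNAs, at -0.61, Grsf1, an RNA granule protein, at -0.56, and Fastkd2 at -0.63. Of the 20 mitochondrial translation factors, edgeR called 11 lower and 0 higher (median -0.29), with 0 higher at an unadjusted p below 0.05 and 0 by DESeq2. Among them were the elongation factors Gfm1 at -0.74 and Gfm2 at -0.76. Of 20 regulators of mitochondrial biogenesis, 10 were called lower and 3 higher (median -0.36), with the nuclear receptor genes Ppara at -1.60 and Esrrb at -1.91 and Perm1, a muscle partner of PGC-1 and ERR factors, at -1.05.

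The nuclear subunits of the same complexes were lower too at 8 weeks, by less than the mitochondrial genes in their medians. Of 37 nuclear complex I subunits 34 were called lower (median -0.62), with Ndufs6 at -0.96 and Ndufs1 at -0.87. All 9 complex III subunits tested were called lower (median -0.50), with Uqcrb at -0.72. Of 14 complex IV subunits 11 were called lower and 2 higher (median -0.58), with the muscle isoforms Cox6a2 at -1.23 and Cox7a1 at -1.09. Of 16 ATP synthase genes tested 13 were called lower and 1 higher (median -0.48). The one higher was Atpif1, the inhibitor of the ATP synthase, at 0.93. The difference between mitochondrial and nuclear subunits was not tested.

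Over time in wild type, the 2 sets had different counts. From 4 to 8 weeks 0 nuclear subunits were called higher in complexes I, III, IV or the ATP synthase, with medians of -0.10, -0.09, -0.18 and -0.14, beside 7 of 8 mitochondrial mRNAs. That count of 0 is edgeR's; DESeq2 also called 0 of them higher, and 0 were higher at an unadjusted edgeR p below 0.05. edgeR called 4 of 20 biogenesis regulators higher and 1 lower over these weeks, against 7.8% of all genes called higher. The 4 were Esrrb at 1.99, Esrrg at 1.27, Perm1 at 0.56 and Ppara at 0.76. From 2 to 4 weeks, against 24.2% of all genes called higher, 26 of 37 complex I subunits were called higher (median 0.39), as were 17 of 21 RNA processing genes (median 0.39) and 13 of 23 transcription and upkeep genes (median 0.31), including Tfb2m at 0.78 and the polymerase gene Polrmt at 0.46. The other complexes, which hold fewer genes, had fewer calls. DESeq2 called 25 complex I subunits higher, beside 2 of complex III, 4 of complex IV and 3 of the ATP synthase. At an unadjusted edgeR p below 0.05 the counts higher were 31, 5, 6 and 7 in the same order. Both ways, 2 complex IV genes and 1 ATP synthase gene were lower. DESeq2 called 49.3% of all genes in either direction. Its share called higher alone is not given, so nothing is read from these counts for complexes III, IV and the ATP synthase. At 6 weeks in the knockout 8 of 37 complex I subunits were called lower (median -0.50), against 4.34% of all genes, beside 0 of 8 mitochondrial mRNAs (median 0.38).

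Across the 37 libraries the 8 genes moved together on the log2 CPM scale, though not all to the same degree. Pearson's r between pairs ran from 0.45 for mt-Nd3 with mt-Nd5 to 0.97 for mt-Nd1 with mt-Cytb, and from 0.38 to 0.96 in the 32 libraries that are not rRNA-rich. mt-Nd4 and mt-Nd5 had an r of 0.97 over 37 libraries and 0.95 over 32, and mt-Nd1 with mt-Nd5 an r of 0.79 and 0.64. Nuclear genes whose log2 CPM most resembled the mean of the 8 genes were Nrd1, Mbd5, Atxn7, Arfgef1 and Upf2, with r from 0.88 to 0.90. Over 32 libraries they were Tlk1, Nrd1, Atxn7, Arfgef1 and Pias1, with r from 0.87 to 0.89. These values share libraries, depth, scaling and age, and are given as a description.

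Markers of other cell types differed between genotypes at 8 weeks, where 26.3% of all genes were called lower and 26.2% higher. Macrophage markers, all 10 of 10 called higher, summed to 52.9 to 73.2 CPM in wild type and 517 to 1147 CPM in knockout. Myofibre markers summed to 125555 to 181460 CPM in wild type and 69051 to 151531 CPM in knockout, with 3 of 7 called lower and 1 higher, shares not far from those of all genes, and none of the 7 was at 0 in a group. Fibroblast markers summed to 2718 to 3650 and 4330 to 8162 CPM, with 4 of 7 called higher and 1 lower. Endothelial markers summed to 268 to 462 and 202 to 250 CPM, with 5 of 5 called lower, and erythroid markers to 40.7 to 122 and 18.5 to 42.6 CPM, also with 5 of 5 called lower. Satellite cell markers summed to 24.9 to 38.6 and 32.5 to 50.1 CPM, with 3 of 4 called higher and 1 lower. Adipocyte markers summed to 13.6 to 346 and 30.6 to 131 CPM, with 3 of 5 called lower. Lymphocyte markers summed to 1.07 to 3.29 and 0.99 to 1.56 CPM, and edgeR called 0 of 6, with 1 lower at an unadjusted p below 0.05 and 1 by DESeq2. Slow-fibre markers summed to 24200 CPM in wild-type animal 36 and to 741 to 2080 CPM in the other 4 wild-type animals, against 982 to 1576 CPM in knockout, with 6 of 7 called lower. Without animal 36 and the rRNA-rich libraries 5 of 8 mitochondrial mRNAs were called lower, mt-Nd1, mt-Nd2, mt-Co1, mt-Nd6 and mt-Cytb. In that fit 47.5% of all genes were called in either direction. The part of other cell types in the 8-week differences was not tested.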

How the data were processed

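RNA of gastrocnemius muscle from 37 mice was purified on RNeasy columns and made into stranded, Ribo-Zero Gold libraries with 38-base paired ends, per the labels' protocols. The deposited values are whole-number counts per Ensembl gene with no normalization. STAR 2.5.2b, featureCounts 1.5.2, edgeR 3.22.0 and mm10 are named, without role or order, per the submitters' processing notes. The strand setting, the annotation version and the treatment of reads that fit several places are not given in the sources used here. Symbols and positions came from GENCODE vM21 (GRCm38), which held 50376 of 50686 identifiers. Total counts per library ran from 5192700 to 23134727, and the precision of low genes such as mt-Nd3 is limited by counting error as well as by the spread between animals.

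All 37 libraries entered 1 edgeR 4.0.16 quasi-likelihood fit (R 4.3.3, robust) with 8 groups and the sequencing pool as terms and 28 residual degrees of freedom. The filter was filterByExpr (count of 10 or more, total of 15 or more), which left 16728 genes. TMM factors ran from 0.443 to 1.59, p-values were Benjamini-Hochberg adjusted over these genes, and the threshold was 0.05. The fit was run on simulated counts with known changes and a common spread for all genes. These held no pool effect and no rRNA-rich libraries, so that run does not test such conditions. Fold changes are log2 values with standard errors, and means are given with SD over animals. A floor of 3 counts corresponds to 0.178 CPM in the median library, for counting error only. Words of 38 bases were compared between transcript sequences of the annotation.

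Alternatives were DESeq2 1.42.0, other scalings, no filter, no pool term, single pools, only the groups compared, labelled sex as a term, and leaving out libraries. A term for nuclear rRNA and leaving out wild-type animal 36 were added after seeing the data. The members and gene lists were chosen with earlier results of these data known. All members are named, as are Nampt, the 5 nuclear genes most like the members' mean, and up to 4 genes of each list by smallest p. The closing section gives what changed.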

Additional observations from a re-analysis of the deposited data

Results flagged for a closer look

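In groups of 4 to 10 libraries, a library was singled out where its gap to the nearest other, divided by the group's range, passed Dixon's 95% critical value. Of 54 groups tested 11 had such a library, where chance gives about 1 in 20. Knockout animal 8 at 4 weeks, which is rRNA-rich, accounts for 6 of them, with 4129 CPM of mt-Nd1, 1958 CPM of mt-Nd2, 2051 CPM of mt-Nd4, 3024 CPM of mt-Nd5, 569 CPM of mt-Nd6 and 4598 CPM of mt-Cytb, each the highest of its group. The next highest knockout library of that age had 2202 CPM of mt-Nd1 and 95.7 CPM of mt-Nd6. Wild-type animal 4 at 4 weeks, also rRNA-rich, had the highest mt-Nd6 with 386 CPM against 173 CPM in the next library. Wild-type animal 1 at 4 weeks, which is not rRNA-rich, had the highest mt-Co1 with 26822 CPM against 16971 CPM in the next library, and the highest share of counts in mitochondrial mRNAs with 3.07% against 2.04%. Knockout animal 29 at 2 weeks had the highest mt-Cytb with 2068 CPM against 1584 CPM in the next library. Knockout animal 30 at 2 weeks had the lowest mt-Nd3 with 0.263 CPM against 0.908 CPM in the next library.

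The knockout effect differed between 8 and 4 weeks, by edgeR's test of the difference itself, for mt-Nd1 at -1.91, mt-Nd2 at -2.44, mt-Co1 at -1.14, mt-Nd4 at -1.33, mt-Nd6 at -2.73 and mt-Cytb at -1.63 on the log2 scale. Animals 8 and 34, both rRNA-rich, enter these differences, and without either of them 4 of the 8 genes tested passed. The share over all genes in those fits is not given.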

How the results depend on the processing

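No paired analysis was possible because each replicate number belongs to 1 animal and no number is shared between groups. The number of mitochondrial mRNAs called lower at 8 weeks, 8 in the fit reported, was 4 with library sizes alone, 3 in pool B alone and 5 without the rRNA-rich libraries and animal 36. Of all genes, these fits called 67.1%, 41.8% and 47.5% in either direction. The number was 6 to 8 under the other alternatives, where 23.1% to 53.3% of all genes were called, and 7 to 8 with single animals left out. mt-Nd5 stood at 0.0235 in pool B alone. From 2 to 4 weeks in wild type the count of 5 became 1 with library sizes alone, 3 in pool A alone and 1 in pool B alone, where mt-Nd3 stood at -0.13. Of all genes, these fits called 47.7%, 18.3% and 31.9%. With single animals left out the count was 3 to 5, the lowest without animal 4. From 4 to 8 weeks the count of 7 became 4 in pool B alone and 4 with only the groups compared, where 7.69% and 10.8% of all genes were called. With single animals left out the count was 3 to 7, the lowest without animal 34. For the 8-week minus the 4-week effect the count of 6 became 2 with library sizes alone, with 44.2% of all genes called. In pool B alone it became 1, with 17.3% of all genes called. It became 3 with only the groups compared and 3 with nuclear rRNA as a term, with 20.6% and 26.8% of all genes called. With single animals left out it was 4 to 7. In pool B alone the differences turned positive for mt-Nd4 (0.0211), mt-Nd5 (0.617) and mt-Nd6 (0.394). For fits with single animals left out, the share of all genes called is not given. The single-pool and group-only fits use fewer libraries, and for other changes the cause was not tested.

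At 2, 4 and 6 weeks 0 genes were called in any fit run, and values near 0 changed sign. At 2 weeks mt-Co1 ran from -0.0561 to 0.0511 with single animals left out. At 4 weeks mt-Nd6 was -0.975 in pool B alone, -0.338 with nuclear rRNA as a term and -0.736 to 0.895 with single animals left out, the lowest without animal 8. mt-Co1 was 0.0653 in pool B alone and -0.197 to 0.0804 with single animals left out. At 6 weeks mt-Nd1 was 0.128 in pool B alone and -0.414 to 0.232 with single animals left out, mt-Nd6 ran from -0.0528 to 1.06, and mt-Cytb was -0.0199 in pool A alone, -0.0972 with sex as a term, -0.0232 with nuclear rRNA as a term and -0.242 to 0.464 with single animals left out. Over the 8 genes, 25 of 96 values at 2 weeks and 22 of 104 at 4 weeks changed sign under other settings. With rRNA left out of the denominator, the share of counts became 2.63% in the 6-week knockout and 4.68% in the 8-week wild type. Single animals were also left out of the shares, a choice made after seeing the data. No group mean moved by more than its SD. Leaving out a single library can never move a mean that far, so no conclusion is drawn from it.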
